A study of Rattus norvegicus with 12 samples.

Results

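Extrachromosomal circular DNAs (eccDNA) that turned up again and again across libraries of rat skin were examined. A circle was counted as recurrent when it lay on a nuclear chromosome and had at least 1 supporting read in at least 4 of the 12 libraries. The members were thus chosen by their supporting reads in each library. The rule held for 1257 of the 228352 listed nuclear circles (0.550%). Of the other circles, 219422 were found in 1 library, 6657 in 2 and 1016 in 3. Presence in libraries chose the members, so the number of libraries in which a circle was found is a description throughout, and the comparison between groups rests on supporting reads per circle.

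The libraries were made by Circle-seq, in which linear DNA is digested and the circles that remain are sequenced. All came from back skin of wild-type (WT) Sprague Dawley (SD) rats kept under SPF conditions, with 4 libraries in each of 3 groups. Control rats were untreated. In the 5Gy x2 group the back had received electron beam radiation in 2 weekly fractions of 5 Gy, and in the 5Gy x4 group 4 such fractions, with skin sampled at day 7 after the last. The higher dose thus also means a later time, and dose and time cannot be told apart. When the untreated skin was sampled, and whether each library is from its own animal, is not in the labels. The p-values here therefore reflect variation among libraries, and that variation may be technical.

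Small eccDNAs are found in healthy tissues, arise from many places in the genome and mostly carry no whole gene. A circle is recognised by reads that cross its junction (split reads) and by read pairs that face outward around it (discordant pairs). Repair of broken DNA, replication errors and the cutting of DNA between nucleosomes in dying cells are known sources of such circles. In a bulk tissue, fewer cells with a circle and fewer copies of it per cell cannot be told apart.

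The total of nuclear supporting reads ran from 32211 to 393501 per library, and these are the only measure of depth used here. Control libraries had 32211, 115977, 191654 and 102674 reads, 5Gy x2 libraries 393501, 88742, 276245 and 49281, and 5Gy x4 libraries 177878, 317553, 176697 and 314239. No 2 libraries looked like copies of each other, since Spearman's rank correlation over the recurrent circles lay between 0.022 and 0.21 for every pair.

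Recurrent circles were longer as listed, deeper and less often marked by a junction read than the others. A listed circle runs from the outermost start to the outermost end of its calls, and its length can grow with the number of calls. By that measure the recurrent circles had a median length of 586 bp, with quartiles of 359 and 998 bp and a range of 39 to 98697 bp, while the other circles had a median of 360 bp. Of all calls (1 circle in 1 library), 12.7% of the recurrent ones and 65.6% of the others were 330 to under 420 bp long. The median of the mean depth was 94.9 for recurrent calls and 4.82 for other calls, and the median support was 20 and 4 reads. Each of these differences, taken over all calls of a library, had the same direction in 12 of 12 libraries. Reads chose the members, so reads and depth are not independent of the rule.

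**Figure D1:**
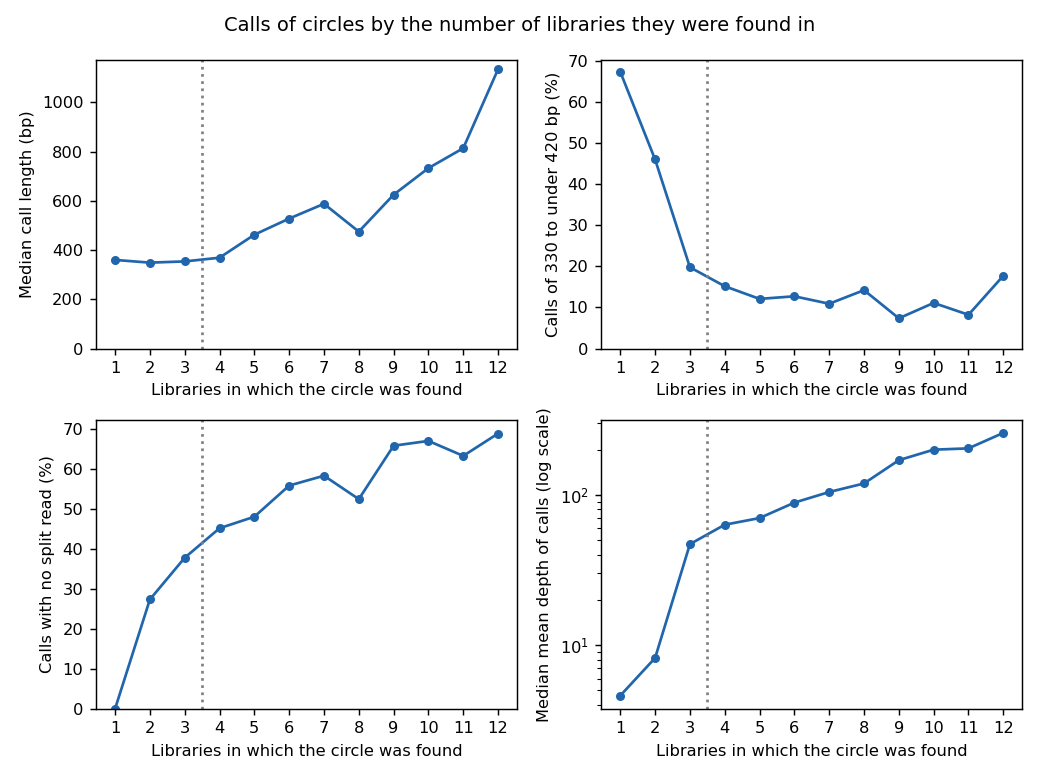
Length, share of calls of 330 to under 420 bp, share of calls with no split read and depth (vertical axes) against the number of libraries in which a circle was found (horizontal axis); the dotted line separates the 1257 recurrent circles, on its right, from the rest. The share of 330 to under 420 bp dropped from 67.4% of calls of circles in 1 library to 15.2% in 4 libraries, and median depth went up to 258 in 12 libraries.

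In the share of 330 to under 420 bp, most of the change lay below the threshold of 4 libraries. Circles in 4 libraries, just inside it, had a median length of 457 bp, a median depth of 63.3 and 15.2% of calls in the range of 330 to under 420 bp. Circles in 3 libraries, just outside, had 415 bp, 47.0 and 19.8%. Circles in 2 libraries still had 46.1% of calls in that range and a median depth of 8.23. The length of single calls changed little across the threshold, with medians of 360, 349, 354 and 369 bp for circles in 1, 2, 3 and 4 libraries. Within the recurrent set, 475 circles were in 4 libraries, 253 in 5, 222 in 6, 108 in 7, 82 in 8 and 117 in 9 to 12.

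The evidence behind a recurrent call was mostly discordant pairs. No split read was listed for 53.3% of the 7342 recurrent calls, against 2.04% of other calls, and split reads made up 27.1% of supporting reads of recurrent circles against 88.2% for the others. Every listed circle had a split read in some library, so circles in 1 library have no call without one by construction. Of the recurrent circles, 371 (29.5%) had split reads in 4 or more libraries and 486 (38.7%) in 1 library only. The authors' label, which the tables do not define, was hconf for 849 circles, conf for 308 and lconf for 100. It was lconf for 59.8% of the other circles and for 7.96% of the recurrent ones.

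The ends of a recurrent circle usually differed between libraries. Of the recurrent circles, 910 (72.4%) had no pair of coordinates that 2 libraries shared. The larger of the spreads of starts and ends was 171 bp at the median, with quartiles of 74 and 324 bp. For 1254 circles all calls still had at least 1 base in common. Only 72 circles (5.73%) had all starts within 5 bp and all ends within 5 bp, and 35 of these had exactly 1 pair of coordinates.

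**Figure D2:**
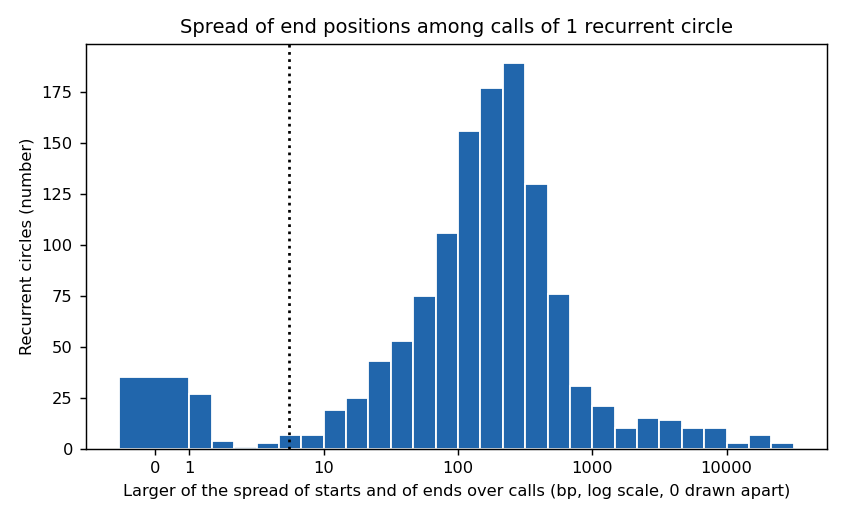
Number of recurrent circles (vertical axis) by the larger of the spread of their starts and the spread of their ends over calls (horizontal axis, log scale, with 0 drawn apart). The dotted line marks the limit of 5 bp, which 72 circles met, and the bulk lies around the median of 171 bp.

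The 72 circles with fixed ends were shorter than the 1185 with variable ends and more often rested on split reads. Their median length was 207 bp against 620 bp, and 34.7% against 3.21% were under 150 bp. Only 2.02% of their calls lacked a split read, against 56.3% for variable ends. Depth hardly differed, with medians of 93.8 and 94.9. Fixed circles were on average in 5.50 libraries and variable ones in 5.62. A limit of 5 bp is easier to meet for a short circle, and a split read places a junction more exactly than a pair. The length and split-read differences are thus not independent of the definition and are descriptions without a test.

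Among fixed circles, the shortest recurrent circle stood at chr2:27312873-27312911 (rn6 coordinates here and below), 39 bp in an intron of Polk, the gene of a translesion DNA polymerase. It was found in 11 libraries with the same coordinates in each, on split reads alone. Control libraries had 100, 142, 112 and 24 reads, 5Gy x2 libraries 36, 94, 15 and 0, and 5Gy x4 libraries 6, 177, 161 and 63. A 42-bp circle in an intron of Babam2 (chr6:26005486-26005527), whose product belongs to a deubiquitinase complex of the DNA damage response, was also identical in its 4 libraries. It had 172, 101, 107 and 0 reads in control libraries, 0, 87, 0 and 0 in 5Gy x2 libraries and none in 5Gy x4 libraries. The third of the shortest was an intergenic circle of 41 bp at chr12:43898329-43898369, with 91 reads over 5 libraries.

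Split reads were a small part of the support of the 2 longest recurrent circles. The longest, 98697 bp at chr2:260463593-260562289 annotated to an exon of Slc44a5, a choline transporter-like gene, was in 8 libraries with 498 reads, of which 34 were split reads. An intergenic circle of 94302 bp at chr13:33496627-33590928 had 2001 reads in 6 libraries, of which 134 were split reads, all from 1 library. A circle of 78682 bp at chr17:89385302-89463983, annotated to AABR07028872.1, was in 10 libraries, and its 18 calls had starts up to 24644 bp apart. Over these calls it had 184 split reads and 258 pairs. At 10 kb or more there were 63 recurrent circles (5.01%), against 0.0616% of the others.

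By annotation, recurrent circles were spread much like the rest, with a smaller share in exons. There were 732 between genes (58.2%, against 60.0% of other circles), 455 in introns (36.2% against 32.0%), 33 in exons (2.63% against 4.71%), 16 in the 2 kb before a gene and 21 in the 2 kb after one. By chromosome, 12 held 67 recurrent circles, which is 5.33% of them against 1.95% of all listed circles, or 15.0 per 1000 listed. The next were X with 8.74 and 20 with 8.26 per 1000, and the lowest autosomes were 11 with 3.01 and 4 with 3.24. Of the recurrent circles 1.83% started in the first megabase of a chromosome, against 0.540% of the others. The 1.83% stands for 23 circles on 8 chromosomes. Several of the 23 overlap each other, such as 4 at chr3:23957-42420, and are not independent. Repeats were not examined, because no genome of the rn6 build was used.

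A minority of recurrent circles overlapped others. Merging those that overlap by at least 1 base gave 1140 loci, 79 of which held more than 1 recurrent circle (196 circles in all). Such neighbours are not independent: 92 calls were listed under more than 1 recurrent circle, and 53 circles (4.22%) shared a call with another. The largest locus lay in introns of Apoo, which encodes a subunit of the complex that shapes the inner mitochondrial membrane. It held 10 recurrent circles over chrX:63559910-63591651. The second was intergenic, at chr1:148620548-148663840, with 7 circles. Loci of 4 circles included chr3:23957-42420, chrX:2200383-2221898, chr1:38786654-38808009, chr17:44228898-44287255 and chr2:586565-597218, all intergenic.

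A gene was named for 498 recurrent circles, through 438 symbols, and 390 of these symbols had 1 circle. Besides Apoo, the genes with most were Pdss2, an enzyme gene of coenzyme Q synthesis, with 6, and Arhgef18, which overlaps AABR07034956.1, with 4. Among the genes with 3 each were Mipep (a mitochondrial peptidase), Dock9 (a Cdc42 exchange factor), Pkd2 (the polycystin-2 channel), Ulk4 and Atxn10. Dkc1, the gene of the RNA-modifying and telomerase protein dyskerin, had 3, of which 1 was in the 2 kb after the gene. The 3 of Emilin1, the gene of an elastic fibre protein, were all in the 2 kb before it. As a share of the circles listed for a gene, 3 of 8 Pkd2 circles, 3 of 17 Mipep circles and 10 of 102 Apoo circles were recurrent. Mycbp2, with 506 listed circles, had 1, and the long genes Luzp2, Astn2 and Dmd, with 113, 114 and 108, had none.

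Recurrent circles were counted in gene groups of skin and immune cells and in 2 large gene families. Immunoglobulin and T cell receptor genes had 2 recurrent circles of 76 listed, both in introns of Ighm, the IgM heavy chain gene. Keratin and cornified envelope genes had 1 of 150 (Krtap4-3), collagen genes 1 of 436 (Col9a1), and olfactory and vomeronasal receptor genes 1 of 696 (Vom2r37). Zinc finger genes had 8 of 1053, which is 0.636% of recurrent circles against 0.461% of listed ones. Over the whole list 0.550% of circles were recurrent. These groups were counted and not tested.

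Found in all 12 libraries were 9 circles, between 61 and 31295 bp long, and 4 of them lay in introns, of Apoo, Laptm4b (a lysosomal membrane protein gene), Pkd2 and Mipep. Across libraries their reads varied widely within each group. Split reads were present in all 12 libraries for 2 of them. One of these, 385 bp long at chr3:32684-33068, had the same coordinates in each library. It had 604, 229, 193 and 34 reads in control libraries, 109, 486, 230 and 262 in 5Gy x2 libraries and 131, 459, 208 and 320 in 5Gy x4 libraries. The 3 groups overlapped, and with edgeR its log2 fold change was -2.33 ± 2.51 (SE) for 5Gy x4 against control (adjusted p = 0.516). Per 100000 supporting reads the 5Gy x4 libraries had 73.6 to 144.5, against 1875 in the first control library and 33.1 to 197 in the other 3. Without that control library the log2 fold change was -0.01 ± 2.57 (edgeR adjusted p = 1).

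The 61-bp circle at chr18:4696251-4696311 was the other, with the same coordinates in 11 of the 12 libraries. Of its 3150 reads 3019 were split reads. Control libraries had 568, 227, 273 and 155 reads, 5Gy x2 libraries 192, 254, 377 and 103, and 5Gy x4 libraries 212, 193, 374 and 222. Scaled to 100000 supporting reads these were 563 ± 801 in control, 170 ± 101 for 5Gy x2 and 116 ± 69.0 for 5Gy x4 (SD, n = 4 each). The control mean rests on its first library, at 1763 per 100000, while the other 3 lay between 142 and 196.

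The Apoo circle in all 12 libraries spans 31295 bp at chrX:63559958-63591252 as listed, but its 32 calls were 6372 to 26718 bp long and no 2 had the same coordinates. Reads were 18, 13, 40 and 100 in control libraries, 20, 30, 77 and 9 in 5Gy x2 libraries and 15, 12, 36 and 159 in 5Gy x4 libraries. The groups overlapped (5Gy x4 against control, log2 fold change -1.15 ± 2.63, edgeR adjusted p = 0.790). The other 9 circles of the Apoo locus were in 4 to 8 libraries, with 106 to 455 reads in all. The intronic circles of Pkd2 (chr14:6615218-6616717) and Mipep (chr15:41100423-41102982) had 14 and 20 calls at as many different coordinates, with split reads in 1 library each.

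Laptm4b gave a circle of 464 bp at chr7:72946522-72946985. Per 100000 supporting reads it had 24.2, 22.0, 11.9 and 19.7 in 5Gy x4 libraries, and 168, 36.2, 40.7 and 51.6 in control libraries. All 4 values of 5Gy x4 lay below the 4 of control, with a log2 fold change of -1.92 ± 2.64 and an edgeR adjusted p of 0.604. The same non-overlap held for the intergenic circle at chr7:142066301-142067188, with 21.4, 34.6, 24.9 and 13.0 in 5Gy x4 libraries and 168, 42.2, 49.6 and 191 in control libraries (adjusted p = 0.538). The remaining intergenic circles in all 12 libraries were at chr10:67234383-67236794 and chr17:55374695-55375511, with 1228 and 584 reads in all, and their groups overlapped.

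**Figure D3:**
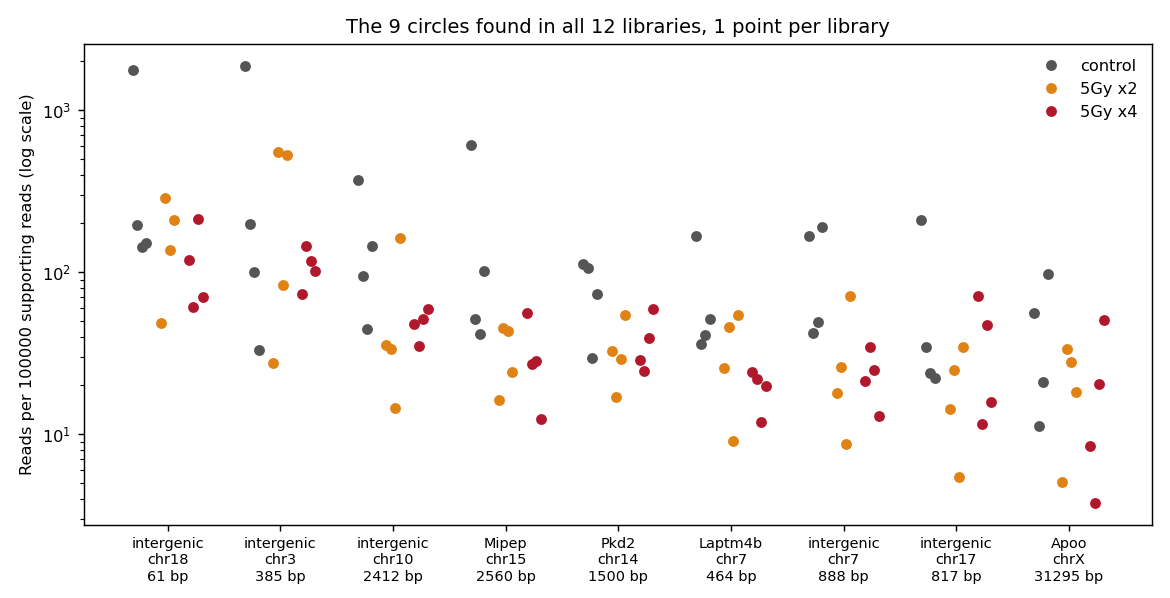
Reads per 100000 nuclear supporting reads (vertical axis, log scale) of the 9 circles found in all 12 libraries (horizontal axis, with gene or intergenic, chromosome and listed length), 1 point per library in the order control, 5Gy x2, 5Gy x4. Points of the 3 groups overlap for most circles, and the highest control point is the first library for 7 of the 9.

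The intergenic circle at chr3:41542-41932, 391 bp long with the same coordinates in each of its 4 libraries, had 30946 reads, the most of any recurrent circle. Control libraries had 0, 9502, 5451 and 4110, 5Gy x2 libraries had 11883, 0, 0 and 0, and 5Gy x4 libraries had none. In the second control library it alone made up 8.19% of supporting reads. A circle of 1107 bp at chr1:180782889-180783995 followed with 7398 reads in 11 libraries, with 446 to 1849 in a control library. It had split reads in all 11 and ends that differed by at most 1 bp.

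Others among the 10 highest by mean reads per 100000 were in introns of Zkscan7, Spon1, Tdrp and Dock9. The Spon1 circle (168 bp, chr1:178907874-178908041), in the gene of a secreted matrix protein, had 609 and 658 reads in 2 control libraries, 443 in 1 of the 5Gy x2 and 882 in 1 of the 5Gy x4 libraries. It was absent from the other 8. The Zkscan7 circle (4886 bp, chr8:131941404-131946289), in a zinc finger gene, had 1156 reads in the first 5Gy x2 library and 550 in the fourth of 5Gy x4, against 44 to 479 in control libraries.

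The recurrent circles took a smaller part of the libraries from irradiated skin, as did circles found in 2 or 3 libraries. They made up 50.1%, 35.3%, 26.8% and 33.3% of supporting reads in control libraries, 13.9%, 13.3%, 7.01% and 24.5% in 5Gy x2 libraries and 10.1%, 5.30%, 9.81% and 8.45% in 5Gy x4 libraries. The means were 36.4% ± 9.84, 14.7% ± 7.25 and 8.40% ± 2.18 (SD, n = 4 each). All 8 irradiated libraries lay below the 4 control libraries. This is a score over chosen circles, so no p is given. Without the chr3 circle of 30946 reads the control mean was 32.6% ± 11.9, and the highest 5Gy x2 library (24.5%) then overlapped the lowest control library (24.0%).

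Behind that share, the number of other circles moved far more than the number of recurrent ones. Other circles numbered 4201, 8669, 9642 and 2992 in control libraries, 18404, 28194, 26927 and 5850 in 5Gy x2 libraries and 21584, 44171, 45500 and 19650 in 5Gy x4 libraries. Recurrent circles present numbered 593, 775, 746 and 608 in control libraries, 601, 562, 515 and 475 in 5Gy x2 libraries and 509, 540, 662 and 473 in 5Gy x4 libraries. Their means were 681 ± 93.3, 538 ± 54.9 and 546 ± 82.0. Presence is fixed by the rule, so these counts describe the set. Drawn down to 32211 reads per library, the expected numbers were 588 to 734 for control, 422 to 524 for 5Gy x2 and 399 to 542 for 5Gy x4. At that depth all irradiated libraries lay below all control libraries, which again describes the chosen set.

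**Figure D4:**
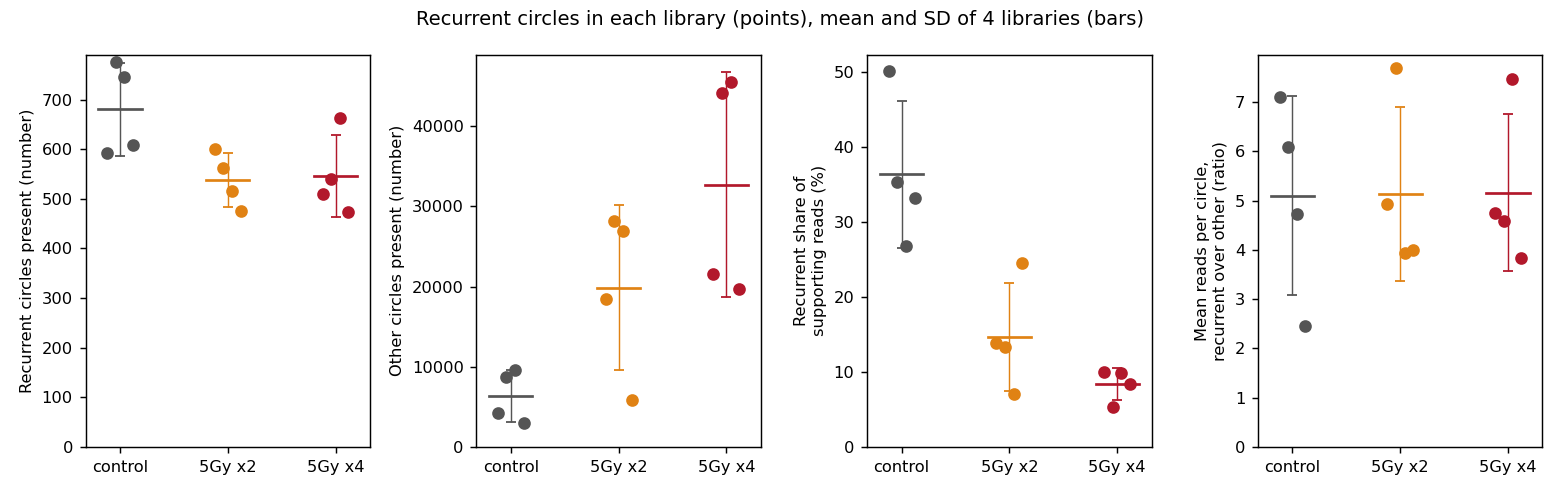
From left to right, the number of recurrent circles present, the number of other circles present, the recurrent share of supporting reads (%) and the ratio of mean reads per recurrent circle to mean reads per other circle (vertical axes) in control, 5Gy x2 and 5Gy x4 libraries (horizontal axes). Points are libraries and bars are the mean and SD of 4; the shares of irradiated libraries lie below all 4 controls, while the ratios overlap.

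Raw reads per recurrent circle, where present and not scaled to library size, overlapped between groups. Means were 27.2, 52.8, 68.9 and 56.2 reads in control libraries, 90.7, 21.0, 37.6 and 25.4 in 5Gy x2 libraries and 35.1, 31.2, 26.2 and 56.2 in 5Gy x4 libraries. Set against the other circles of the same library, a recurrent circle had 5.10 ± 2.02 times as many reads in control libraries, 5.14 ± 1.77 times in 5Gy x2 and 5.16 ± 1.59 times in 5Gy x4 libraries. Neither measure put a group apart, and the spread of the ratio within a group was larger than the differences between its means. The raw means do not account for library size, however. Supporting reads averaged 246592 per 5Gy x4 library, 201942 per 5Gy x2 library and 110629 per control library. Overlap of the raw means therefore does not show that reads per recurrent circle were unchanged relative to library size. The share of supporting reads given above is relative to library size.

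Length differed between groups for other circles but hardly for recurrent ones. Calls of 330 to under 420 bp were 13.7% ± 0.793 of recurrent calls in control libraries, 12.4% ± 1.57 of those in 5Gy x2 libraries and 11.9% ± 1.64 of those in 5Gy x4 libraries. For other calls they were 33.7% ± 12.8, 68.2% ± 2.88 and 68.1% ± 2.34. Recurrent calls without a split read were 50.1% ± 1.97, 55.2% ± 1.68 and 56.3% ± 4.21. The 5Gy x2 libraries (53.0% to 57.1%) lay above all control libraries (47.3% to 51.9%) in this share, and those of 5Gy x4 (51.2% to 61.0%) overlapped them.

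**Figure D5:**
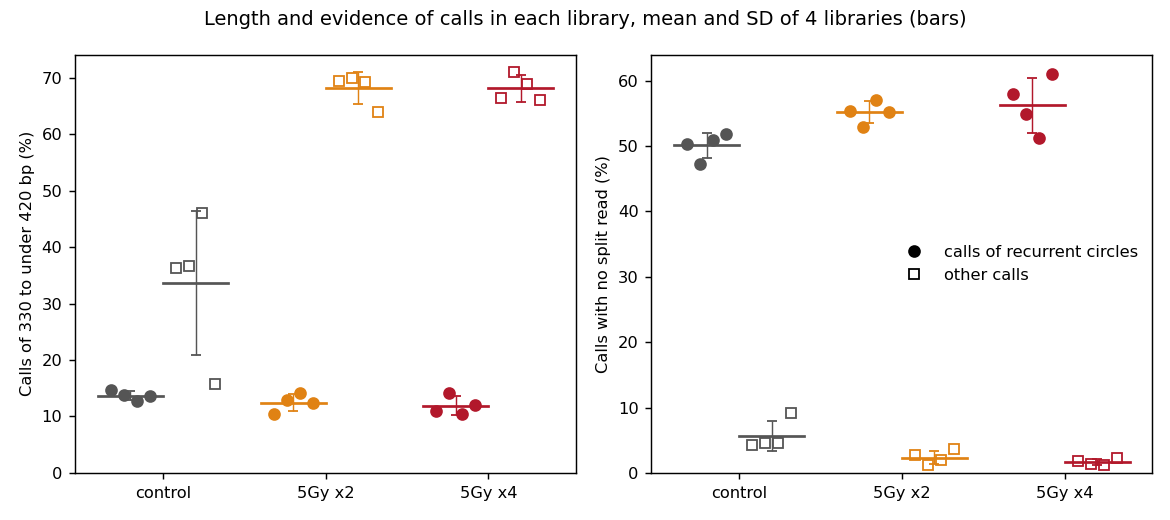
Share of calls of 330 to under 420 bp and share of calls with no split read (vertical axes, %) in control, 5Gy x2 and 5Gy x4 libraries (horizontal axes), for calls of recurrent circles (filled) and other calls (open). Points are libraries and bars are the mean and SD of 4; the 330 to under 420 bp share of recurrent calls stays between 10.4% and 14.6% in all 12 libraries, while that of other calls runs from 15.7% to 71.1%.

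By edgeR, no recurrent circle passed an adjusted p of 0.05 in supporting reads between groups, while other tools gave some calls. edgeR's quasi-likelihood test, on all 8930 circles found in 2 or more libraries, called 0 circles (0%) in 5Gy x4 against control, in 5Gy x2 against control and in 5Gy x4 against 5Gy x2. The lowest adjusted p among recurrent circles was 0.293, 0.295 and 0.264 in that order. At an unadjusted p under 0.05 there were 128 recurrent circles in 5Gy x4 against control (10.2% of them, against 11.8% of all tested), 115 in 5Gy x2 against control (9.15%, against 8.11%) and 107 in 5Gy x4 against 5Gy x2 (8.51%, against 5.38%). Libraries of a group differed widely, with a common dispersion of 10.5. With the dispersion estimated here, the same test called 0 of 184 simulated 4-fold changes. The 0 calls therefore do not show that circles were unchanged. limma-voom called 583 circles in 5Gy x4 against control (6.53% of all tested), 125 of them recurrent (9.94% of the recurrent). In 5Gy x2 against control it called 2 (0.0224%), of which 1 was recurrent, and in 5Gy x4 against 5Gy x2 131 (1.47%), of which 20 were recurrent (1.59% of the recurrent). DESeq2 called 13, 10 and 19 circles in these comparisons (0.855%, 1.82% and 1.25% of the 1521, 549 and 1521 circles it gave an adjusted p), of which 7, 4 and 11 were recurrent. For 5Gy x4 against control, 124 of the 125 by limma-voom were lower. In that fit the median log2 fold change over all 8930 circles was itself -1.24, against -2.29 over the recurrent ones.

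The size of the fitted changes depended on the scaling. With total nuclear supporting reads as the library size, 1087 of 1257 recurrent circles had a negative log2 fold change in 5Gy x4 against control (median -2.18), 957 in 5Gy x2 against control (median -1.52) and 780 in 5Gy x4 against 5Gy x2 (median -0.55). The median over all tested circles was 0.00 in each. With at least 3 libraries required, however, the median over all 2273 tested circles was -2.26, -1.55 and -0.48 in the same order. These circles include the recurrent ones, whose medians in that fit were -2.18, -1.52 and -0.55. The 0.00 thus does not show that the shift was particular to recurrent circles. In the fit reported, with circles at 0 in a group set at their bound of 3 reads over that group, the recurrent medians were -2.16, -1.51 and -0.57. With TMM factors they were -0.46, -0.49 and 0.04, while the median of all tested circles for 5Gy x4 against control moved to 0.74. In that comparison 763 recurrent circles were lower with TMM factors and 748 with TMMwsp factors. With mitochondrial supporting reads as the library size the recurrent medians were -3.32, -2.75 and -0.52. In that fit 1158 recurrent circles were lower in 5Gy x4 against control. Mitochondrial reads themselves differed between groups, with means of 5349.5 per 5Gy x4 library, 4481 per 5Gy x2 library and 1226.5 per control library. A larger divisor lowers the fitted level, and its part in these medians was not tested. The median was thus negative for both irradiated groups against control under these scalings, while that of 5Gy x4 against 5Gy x2 changed sign with TMM factors. The levels are relative to the supporting reads of all nuclear circles in a library, most of which came from circles that were not recurrent in 11 of the 12 libraries.

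Without a call, the 10 recurrent circles with the lowest p are described for each comparison. In 5Gy x4 against control all 10 had 0 reads in the 5Gy x4 libraries. The lowest p belonged to the chr3 circle of 391 bp, at least 14164-fold lower against the bound of 3 reads over the group (edgeR log2 fold change -15.77 ± 3.81, adjusted p = 0.293). Next was an intergenic circle of 2248 bp at chr4:146546126-146548373, with 0 reads in every 5Gy x4 library against 387, 287, 0 and 212 in control libraries, at least 658-fold lower (adjusted p = 0.293). The Babam2 circle described above came after it. A Zkscan7 circle of 845 bp (chr8:131942071-131942915) had none in 5Gy x4 libraries, against 0, 365, 342 and 0 in control libraries. An Acox3 circle (chr14:80326958-80327564), in the gene of a peroxisomal oxidase, had none against 0, 177, 147 and 150, and a circle beside Fpgt (chr2:261363197-261380753) none against 0, 154, 108 and 126. The adjusted p was 0.293 for all 10. Of these 10, all values of 5Gy x4 lay below all of control for 3, among them the circle at chr8:2536-18674, with 15, 60, 306 and 205 reads in control libraries.

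In 5Gy x2 against control, 9 of the 10 had 0 reads in the 5Gy x2 libraries. A circle of 2790 bp in Arhgef7 (chr16:83053398-83056187), a Rac and Cdc42 exchange factor gene, had none in 5Gy x2 libraries against 132, 85, 105 and 245 in control libraries. That is at least 345-fold lower (log2 fold change -11.50 ± 3.74, edgeR adjusted p = 0.295). The 5Gy x4 libraries had 114, 240, 0 and 189 reads of it, so it was not lacking in all irradiated skin. A Kif5a circle (chr7:70518042-70519019), in a kinesin gene, had 0 reads in 5Gy x2 libraries against 252, 23, 56 and 0 in control libraries. A Myrip circle (chr8:129062911-129063846) had 0 against 0, 0, 111 and 153, and a Ccdc173 circle over an exon (chr3:56022938-56024090) had 0 against 26, 64, 0 and 17. The exception, at chrX:18211203-18230831, had 233, 0, 0 and 135 reads in 5Gy x2 libraries and none in control libraries, at least 67.2-fold higher (adjusted p = 0.295).

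In 5Gy x4 against 5Gy x2, 9 of the 10 had 0 reads in the 5Gy x4 libraries, and 5 of them were among the 10 above for 5Gy x4 against control. These comparisons share the 5Gy x4 libraries. An intergenic circle at chrX:352738-361860 had 0 reads in 5Gy x4 libraries against 0, 0, 666 and 138 in 5Gy x2 libraries (adjusted p = 0.264). An Atxn10 circle (chr7:126317992-126319086) had 0 against 150, 26, 0 and 52. A second Atxn10 circle that overlaps it had 16, 9, 0 and 29 reads in 5Gy x4 libraries, and 150, 26, 14 and 32 in 5Gy x2 libraries, of which the 150 and 26 equal those of the first. The exception was the Arhgef7 circle, at least 148-fold higher in 5Gy x4 libraries (adjusted p = 0.264).

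Complete separation of 4 libraries from 4 was seen for few recurrent circles. In reads per 100000, all 4 libraries of 5Gy x4 lay below all 4 of control for 61 recurrent circles, or 0.683% of all tested, and above them for 3 (0.0336%). For 5Gy x2 against control there were 38 below (0.426%) and 2 above (0.0224%), and for 5Gy x4 against 5Gy x2 there were 10 below (0.112%) and 7 above (0.0784%). A circle must be in 4 libraries to meet this, so all of them were recurrent by construction, and the share of all tested says nothing further about them.

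The circles above control were named after their values were seen. A Man2a1 circle (chr9:112304877-112305349), in the gene of a Golgi mannosidase, had 15, 23, 9 and 2 reads in 5Gy x4 libraries and none in control or 5Gy x2 libraries. It was not called against control (edgeR adjusted p = 0.293). This circle passed the rule of 4 libraries only through the group where it was high, so its values are a description. A circle in the 2 kb after Dkc1 (chrX:155838024-155844110) had 7, 93, 10 and 16 reads in 5Gy x4 libraries against none in control libraries, with 48, 0, 36 and 0 in 5Gy x2 libraries. An intergenic one at chr9:86238507-86238900 had 58, 54, 88 and 32 in 5Gy x4 libraries against none in control libraries. For 5Gy x2 they were a circle in Asph (chr5:22583109-22583753), the gene of an aspartate hydroxylase, with 141, 1, 15 and 14 reads against none in control, and an intergenic one at chr1:182406710-182407798, with 62, 12, 45 and 84 against none. The last of these also had 30, 0, 27 and 52 reads in 5Gy x4 libraries, while the Asph circle had none there. The Asph circle thus also passed the rule only through the group where it was high.

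At least 1 library of each group held 945 recurrent circles (75.2%). A circle in 5 or more libraries cannot lie in 1 group of 4 alone, so this share follows in part from the rule. None of the control libraries held 53, none of the 5Gy x2 libraries 138 and none of the 5Gy x4 libraries 129, and a recurrent circle was on average in 2.17 libraries of control, 1.71 of 5Gy x2 and 1.74 of 5Gy x4. Absent from all 8 irradiated libraries were 6. By the rule of 4 libraries such a circle must be in all 4 control libraries. These 6 were thus recurrent only through the control group, and their values are a description. The 6 circles lay in introns of Cnksr3, Irs2 (an insulin receptor substrate gene), AC105531.1 and AABR07066379.1, in an intron at chr12:14718298-14718356 listed without a symbol, and between genes at chr7:77321479-77322561. Their reads were few. The Irs2 circle (chr16:83836518-83837295) had 0 in every irradiated library against 10, 24, 40 and 90 in control libraries, and over all 6 the totals were 65 to 178 reads.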

How the data were processed

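Circular DNA from 12 libraries of rat back skin was analysed. Per the file headers and labels, the authors deposited counts: whole supporting reads (split reads plus discordant pairs) per circle of 1 common list, not normalized. Per the submitters' processing notes, the tools were BWA, Picard and bedtools and the build rn6. Which caller was used, and how circles of different libraries were joined, is not given in the sources used here. In the deposited table, 158 recurrent circles had several calls from 1 library, and in all 296 such cases of the list the count was that of the last call, never the sum. Read lists of 9 entries had lost separators or last digits. Those of 8 were put right from the counts, 5 of them recurrent, and the lists then gave the table's own totals for all 228352 nuclear circles. The table's 14 other columns with values of single samples, and the ecDNA table, were not used. PCR reads without molecular identifiers are not molecules, and bounds cover counting error only.

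Circles in at least 2 libraries (8930) were fitted in R 4.3.3 with edgeR 4.0.16 (glmQLFit, all 12 libraries, group as the only term, library size the sum of nuclear supporting reads) with Benjamini-Hochberg adjustment. The SE of an edgeR log2 fold change is approximate: its absolute value divided by the square root of the F statistic of the test. DESeq2 1.42.0, limma 3.58.1 (voom), other scalings and filters, and leaving out each library were alternatives. Counts were also simulated with 4-fold changes up or down in 5Gy x4 against control. At the dispersion estimated from these libraries, edgeR called 0 of 184 changed circles. At a dispersion of 0.05 it called 148 of 200, all in the right direction, and 7 unchanged circles. Tables were made with Python 3.11.15 and pandas 2.3.3. Members and gene groups were chosen with earlier results of these data known. Named are the circles with the lowest 10 p-values per comparison where fewer than 5 passed, those in all 12 libraries, the 10 highest means, the 3 longest and shortest, and the loci and genes with most members. Replicate numbers were not used as a pairing, since no protocol says that they pair libraries. The r of deviations from group means was -0.065 to 0.052 for the same number and -0.11 to 0.097 for other numbers. Values this low throughout cannot show or exclude a pairing. Gene symbols are those of the deposited table; 392 of 438 matched RefSeq symbols and 7 a synonym.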

Additional observations from a re-analysis of the deposited data

Results flagged for a closer look

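Within each group of 4 libraries, a library far from the other 3 was looked for. The search covered 9 measures and the 9 circles found in all libraries, 54 groups in all, and flagged 7. The limit used flags about 5% of groups by chance if values are normally distributed. Reads of single circles varied widely and the groups share libraries, so 5% is not the rate to expect here. In 5 of the 6 circles concerned the distant library was the first control library, the one with the fewest supporting reads (32211). It had 1763 reads per 100000 of the circle at chr18:4696251-4696311, against 142 to 196 in the other control libraries. It had 1875 of the circle at chr3:32684-33068, against 33.1 to 197. The Mipep circle stood at 608 there, against 41.7 to 102, the circle at chr17:55374695-55375511 at 211, against 22.4 to 34.5, and the Laptm4b circle at 168, against 36.2 to 51.6. The same library had the shortest median of recurrent calls, 444 bp, against 503 to 505 bp. In the fourth 5Gy x2 library, which had 49281 supporting reads, the circle at chr10:67234383-67236794 stood at 162 reads per 100000, against 14.5 to 35.6. The part of library size in these values was not tested.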

How the results depend on the processing

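Counts of recurrent circles past an adjusted p of 0.05, which were 0 in the fit reported, are given for the other settings. In 5Gy x4 against control there was 1 with edgeR's own filter on low counts (729 circles tested), 1 with at least 3 libraries required, 1 with at least 4 and 1 with factors from the recurrent circles alone, a setting chosen after seeing the data. There were 125 by limma-voom and 7 by DESeq2, and leaving out a library gave 0 to 1. In 5Gy x2 against control limma-voom gave 1 and DESeq2 4, and leaving out any library gave 0. In 5Gy x4 against 5Gy x2 there was 1 with at least 4 libraries, 1 with factors from the recurrent circles alone, 20 by limma-voom and 11 by DESeq2, and 0 on leaving out any library. The single edgeR call was in every case the 391-bp circle at chr3:41542-41932, and on leaving out a library it came without the first control library (adjusted p = 0.0399). TMM and TMMwsp factors, mitochondrial reads as library size, merged overlapping circles and summed calls gave 0. With the replicate number as a block, which no protocol gives as a pairing, the count was also 0. For the lowest-p circles, 678 of 713 values in other settings kept direction and side of the threshold, 35 passed it, and 2 could not be given because both groups were at 0. The cause was not tested.

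Recurrent circles present per library averaged 998, 757 and 772 in control, 5Gy x2 and 5Gy x4 libraries with at least 3 libraries required, and 483, 397 and 411 with at least 5. Where presence needed a split read the averages were 194, 142 and 142. At equal reads they were 653, 479 and 446. Leaving out a library moved them to 649 to 710, 517 to 559 and 507 to 570. The share of supporting reads where presence needed a split read averaged 13.4%, 4.94% and 2.17%, in the same order of groups. Leaving out a library gave 31.8% to 39.5%, 11.4% to 17.2% and 7.85% to 9.44%. Reads per present circle were 71.6 in control libraries where presence needed a split read, and leaving out a library gave 45.4 to 59.3, 28.0 to 51.2 and 30.8 to 40.8.

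A count of 0 in a library is a limit of counting, with 32211 supporting reads in the shallowest library and 393501 in the deepest. Total sequencing depth is unknown, and levels are relative to the supporting reads of all nuclear circles in a library.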
